A study of Mus musculus with 2 samples.

Results

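The Usp17l genes encode deubiquitinases of the ubiquitin-specific protease class, and the Tcstv genes encode small proteins named for their transcripts at the 2-cell stage of the mouse embryo. Every gene whose symbol in the platform annotation starts with Usp17l or Tcstv was taken, which gave 6 Usp17l genes and 2 Tcstv genes, 8 of the 22485 named genes on the array. They rested on 9 of the 44397 features, 1 per gene and 2 for Usp17la. Both families were chosen by their RA ratios, which earlier results of these arrays had shown to be high, so these ratios are a description, without a test.

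Dual-colour Agilent arrays compared mouse embryonic stem (ES) cells given retinoic acid (RA) with untreated cells of the same line, by their total RNA. One array held the Utx knockout line, written UtxKO in the labels, and the other held V6.5, a wild-type line whose name the labels also attach to the knockout. Treated cells lost leukaemia inhibitory factor (LIF), the cytokine that keeps mouse ES cells undifferentiated, and received 100 nM RA for 48 h, while untreated cells kept LIF on gelatin. Loss of LIF and addition of RA cannot be told apart, and each group is 1 array without replicates, so no value has a replicate check. Utx, encoded by Kdm6a, removes the repressive mark H3K27me3 from histones. The knockout is given as 1 line, and whether it is 1 clone is not given in the sources used here.

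Deubiquitinases cut ubiquitin off proteins and so can spare them from degradation or alter their activity. Mouse Usp17la, under its older name Dub1, and Usp17lc, as Dub2, were described as early genes switched on by cytokines in blood cells. A small share of cells in ES cultures passes for a while into a state that resembles the 2-cell embryo, in which Zscan4, Tcstv and Usp17l genes are transcribed. Tcstv1 and Tcstv3 have been linked to telomere length in mouse ES cells.

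The start regions of 4 members were in the RefSeq promoter table of build GRCm38.p6: Usp17la, Usp17lb, Usp17lc and Usp17ld. They are shown because these copies share a stretch of 159 bases, taken from the first to the last 15-base word found in all 4, which lets their common and differing letters be set beside their ratios. In each sequence, written 5′ to 3′ on the strand of the gene, capitals mark the TATA box letters TATAAAA and the CCAAT box letters CCAAT, which read ATTGG where the box is on the opposite strand. The interval follows the name of each gene.
Usp17ld, chr7:103252582-103252740, minus strand: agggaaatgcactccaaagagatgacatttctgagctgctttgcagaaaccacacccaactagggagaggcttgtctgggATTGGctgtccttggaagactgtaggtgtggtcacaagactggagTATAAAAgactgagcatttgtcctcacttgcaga
Usp17lc, chr7:103416483-103416641, plus strand: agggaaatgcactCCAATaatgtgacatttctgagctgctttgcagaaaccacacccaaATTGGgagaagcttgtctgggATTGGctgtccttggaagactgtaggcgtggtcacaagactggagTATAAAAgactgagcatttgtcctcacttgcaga
Usp17lb, chr7:104842581-104842739, minus strand: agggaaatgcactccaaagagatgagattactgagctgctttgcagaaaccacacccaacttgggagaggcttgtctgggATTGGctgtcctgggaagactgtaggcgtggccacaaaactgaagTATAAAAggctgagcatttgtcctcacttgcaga
Usp17la, chr7:104856845-104857003, plus strand: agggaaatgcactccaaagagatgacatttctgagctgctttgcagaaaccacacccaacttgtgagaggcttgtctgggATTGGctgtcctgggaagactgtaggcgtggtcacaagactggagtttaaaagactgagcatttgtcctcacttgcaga

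The stretches differed from each other at 5 to 13 of the 159 bases. The closest were Usp17la and Usp17ld, with 5 differing bases and 96.9% identity, and the most distant were Usp17lb and Usp17lc, with 13 and 91.8%. All 4 held a CCAAT box on the opposite strand at positions 81 to 85, counted from 1 at the 5′ end of the stretch, and Usp17lc held 2 more, at positions 14 to 18 on the strand of the gene and at 60 to 64 on the opposite strand. Usp17lb, Usp17lc and Usp17ld held the TATA box letters at positions 126 to 132. Usp17la carried the substitution A127T relative to Usp17ld, which breaks those letters. Positions in the stretch are not distances from the annotated start of the gene. Counted in bases before that start, the stretch ended at 12 in Usp17la, -3 in Usp17lb (past the start), 54 in Usp17lc and 76 in Usp17ld. The TATA box letters thus lay further from the annotated start in Usp17lc and Usp17ld than in Usp17lb.

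Over the whole 300-base window, searched on both strands, TATAAAA was in 5.48% of the 32851 windows of the table and CCAAT in 37.4%. AGGTCA, a half-site of RA receptor elements, was in 0 of the 4 windows and in 16.3% of all. Whole elements, in which half-sites are repeated, were not searched. A match describes letters, not binding, and a missing match says only that these letters are not in this window.

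All values below are log2 ratios of RA-treated over untreated cells, so that 1 is a 2-fold higher level after RA. This direction is the likely one from the dyes in the labels. In this reading Cyp26a1, an RA-degrading enzyme and RA target, had 4.27 in the knockout and 3.54 in V6.5. The median of all named genes was -0.020 in the knockout and -0.019 in V6.5. In genes with 2 to 9 features, the SD between features had a median of 0.14 on each array. The probe of Kdm6a had -0.16 in the knockout and -0.39 in V6.5. That ratio sets treated against untreated cells of 1 line and does not check the knockout.

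All 8 genes of both families had positive ratios on both arrays. In the knockout 5 of 8 were at least 2-fold higher after RA, where 2.92% of all named genes were. In V6.5 all 8 were, where 2.52% of all named genes were. Nothing is read from these shares, because the families were chosen by such values. At 1.5-fold, 8 of 8 genes were higher in the knockout and 8 of 8 in V6.5, where 7.28% of all named genes were in the knockout and 6.69% in V6.5. At 4-fold, 3 were in the knockout and 4 in V6.5, where 0.649% of all named genes were in the knockout and 0.56% in V6.5. Counted over features, 5 of 9 were at least 2-fold higher in the knockout and 8 of 9 in V6.5, where 2.94% of all features were in the knockout and 2.64% in V6.5. The median of the 8 was 1.65 in the knockout and 2.43 in V6.5. In RNA from a whole culture, more cells in a state and more RNA per cell cannot be told apart.

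**Figure D1:**
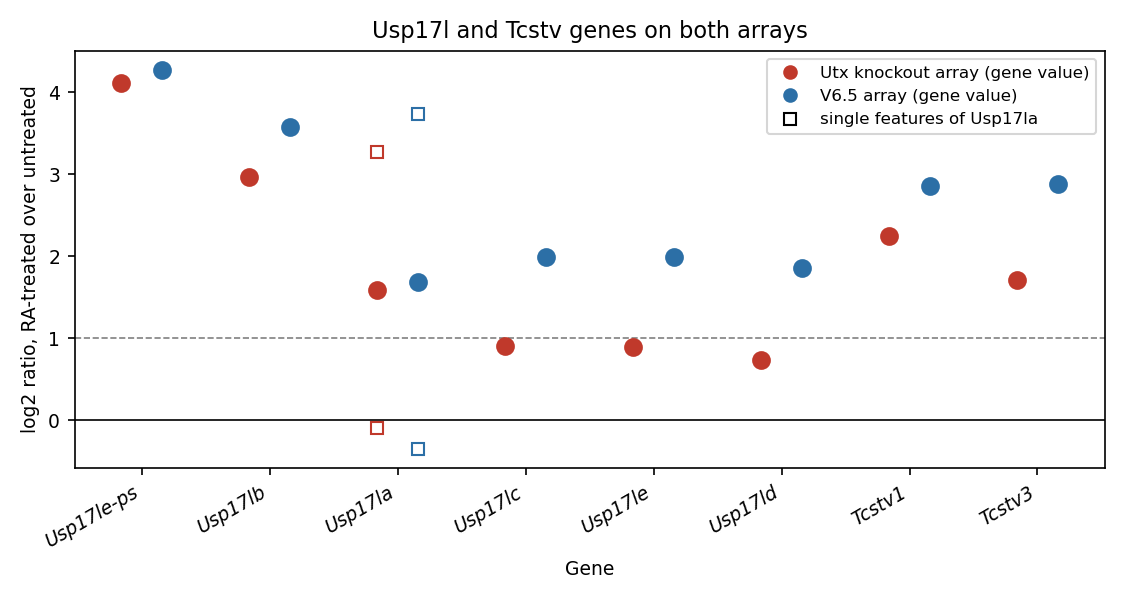
Log2 ratio of RA-treated over untreated cells (vertical axis) for each of the 8 genes, with the Utx knockout array in red left of the V6.5 array in blue. Filled circles are gene values, open squares the 2 features of Usp17la, and the dashed line marks 2-fold. Usp17lc, Usp17ld and Usp17le lie below the line in the knockout and above it in V6.5.

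Usp17le-ps, annotated as a pseudogene, had the highest ratio of both families, 4.11 in the knockout and 4.27 in V6.5. This is 17.3-fold in the knockout and 19.3-fold in V6.5, at rank 23 in the knockout and rank 16 in V6.5 among all named genes. Usp17lb, known as Dub1a, came next with 2.97 in the knockout and 3.57 in V6.5, which is 7.82-fold in the knockout and 11.9-fold in V6.5. The values on the 2 arrays lay closer together for the pseudogene than for Usp17lb.

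Usp17la, the gene first known as Dub1, was measured by 2 features annotated to the same transcript, and they disagreed. One feature had 3.27 in the knockout and 3.74 in V6.5, close to the values of Usp17lb. The other had -0.093 in the knockout and -0.35 in V6.5. The gene value, their mean, was 1.59 in the knockout and 1.69 in V6.5, a ratio that neither feature showed. The gap between the features was 3.36 in the knockout and 4.09 in V6.5. Among the 4776 genes with exactly 2 features the median gap was 0.18 on both arrays, and a gap of this size or more was seen for 3 genes, Usp17la included, in the knockout and for 2 in V6.5. Which feature follows Usp17la transcripts was not tested.

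The other Usp17l genes formed a lower and tighter group. Usp17lc, known as Dub2, had 0.90 in the knockout and 1.99 in V6.5. Usp17le, listed in RefSeq as Dub3, was 1.85-fold higher in the knockout and 3.99-fold in V6.5, and Usp17ld, known as Dub2a, had 0.74 in the knockout and 1.85 in V6.5. Within each array these 3 genes lay within 0.16 of each other, about the spread between features of 1 gene, so no order among them can be read. Between the lowest of the higher features, that of Usp17lb, and the highest of these 3 lay 2.07 in the knockout and 1.58 in V6.5. Among the printed start stretches, Usp17la was closest to Usp17ld, and Usp17lc and Usp17ld differed at 8 bases, as many as Usp17la and Usp17lb. The group of Usp17la depends on which of its features is used. Whether closeness of the stretches follows these groups therefore cannot be read. The copies are closely related, so their probes can share signal and no value can be assigned to 1 copy with certainty. The annotated accession of 6 of the 8 genes was among the transcripts of that gene in RefSeq. The exceptions were Usp17le, annotated to a predicted transcript, and Usp17le-ps, annotated to a cDNA clone.

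The Tcstv genes stood between these groups on both arrays. Tcstv1 had 2.25 in the knockout and 2.86 in V6.5, which is 4.75-fold in the knockout and 7.27-fold in V6.5. Tcstv3 had 1.71 in the knockout and 2.88 in V6.5, which is 3.27-fold in the knockout and 7.36-fold in V6.5. In V6.5 their values were 0.018 apart, under the spread between features of a gene, and in the knockout 0.536 apart, above it. Each gene rested on 1 feature, and whether their probes share signal was not tested.

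From high to low, the order of the gene values in the knockout was Usp17le-ps, Usp17lb, Tcstv1, Tcstv3, Usp17la, Usp17lc, Usp17le and Usp17ld. In V6.5 it was Usp17le-ps, Usp17lb, Tcstv3, Tcstv1, Usp17le, Usp17lc, Usp17ld and Usp17la. In the knockout Tcstv3 and Usp17la, and in V6.5 Usp17ld and Usp17la, were also closer than or near the spread between features. The place of Usp17la comes from the mean of its 2 features.

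The design sets the RA response of cells without Utx against that of V6.5. All 8 genes had a lower ratio in the knockout, with differences, knockout minus V6.5, between -1.17 and -0.10. The differences of Usp17la, -0.10, and Usp17le-ps, -0.16, were under the spread between features for a difference, 0.20. That of Usp17la is the mean of 2 features of opposite sign. Such a difference was negative in 49.3% of all named genes and in 59.5% of the 566 genes at least 2-fold higher in V6.5. Without replicate arrays these differences were not tested.

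Tcstv3 had the largest difference of the 8, -1.17, a ratio 2.25-fold lower in the knockout. Usp17ld (-1.11), Usp17le (-1.11) and Usp17lc (-1.09) followed. These 4 of 8 genes were at least 2-fold lower in the knockout, where 0.467% of all named genes were, and 11.1% of the genes at least 2-fold higher in V6.5. They held places 61, 69, 70 and 74 from the lowest difference among all named genes. At least 1.5-fold lower were 6 of 8, where 1.88% of all named genes were, and at least 4-fold lower 0 of 8, where 0.0133% were. A ratio at least 2-fold higher in the knockout was seen for 0 of the 8 and for 0.583% of all named genes. Nothing is read from these shares of differences, here or above, because the families were chosen by their ratios. Usp17lc, Usp17ld and Usp17le are close copies whose probes can share signal, so they may not be separate changes.

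Tcstv1 and Usp17lb had nearly the same difference, -0.62 and -0.61. Usp17le-ps had -0.16, about the spread between features. The higher feature of Usp17la had -0.47 and its lower feature 0.26, of opposite sign. Among the Usp17l features with a positive ratio, the difference was thus smallest for the pseudogene and largest for the 3 genes with the lowest ratios.

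**Figure D2:**
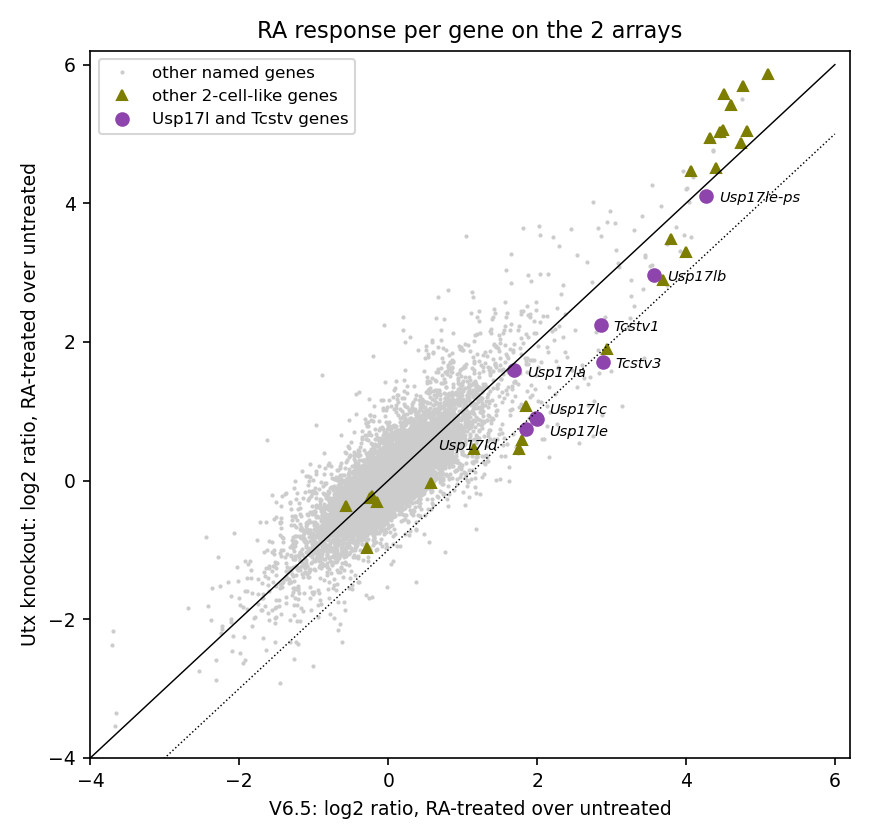
Log2 ratio of RA-treated over untreated cells in the Utx knockout (vertical axis) against V6.5 (horizontal axis), with 1 point per gene. Purple circles are the Usp17l and Tcstv genes, olive triangles the other 2-cell-like genes and grey points the other named genes. The solid line marks equal ratios and the dotted line a knockout ratio 2-fold lower; all 8 purple circles lie below the solid line.

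Other genes of the 2-cell-like state were set beside the families. Of 25 measured, 16 were at least 2-fold higher in the knockout and 19 in V6.5, with medians of 3.29 in the knockout and 3.80 in V6.5, and 0 were 2-fold lower on either array. Over all named genes 2.92% were 2-fold higher in the knockout and 2.52% in V6.5. The list was chosen with earlier results of these arrays known. Gm4340 had the highest mean, with 5.86 in the knockout and 5.10 in V6.5, followed by Zscan4f with 5.69 in the knockout and 4.77 in V6.5. At the low end stood Zfp352, an early-embryo zinc finger gene, with -0.98 in the knockout and -0.29 in V6.5, and Dppa4 with -0.37 in the knockout and -0.57 in V6.5. The 5 Zscan4 genes ranged from 2.89 to 5.69 in the knockout and from 3.70 to 4.82 in V6.5, with Zscan4-ps1 at the low end of both. The ratios of Usp17le-ps lay within this range only because of Zscan4-ps1. The other Zscan4 genes had at least 4.87 in the knockout and 4.60 in V6.5, above Usp17le-ps on both arrays. The ratios of Usp17lc, Usp17ld and Usp17le lay under the whole range.

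Between the lines the 2-cell-like genes went both ways. Of the 25 genes, 13 had a lower ratio in the knockout and 12 a higher one, and the median difference was -0.0083, against -0.85 for the 8 Usp17l and Tcstv genes. These medians pool different ratio levels, and that of the 25 includes genes under 2-fold on both arrays. The genes of the 25 with V6.5 ratios from 1.15 to 3.80 all had a lower ratio in the knockout. Their differences ran from -1.30 to -0.31, and Gm8300, just above them in V6.5, had -0.71. The genes of the 25 with 4.06 or more in V6.5 all had a higher one, by 0.11 to 1.06. All family genes but Usp17le-ps lay from 1.15 to 3.80 in V6.5. Usp17le-ps, with 4.27 in V6.5, had a difference of -0.16, opposite in sign to the genes of the 25 at that level. These ranges were set after the values were seen. Gm5662 (1.06), Zscan4f (0.92), Zscan4e (0.81), Gm4340 (0.76) and Gm20767 (0.62) had higher ratios in the knockout. Spz1 (-1.30), Pramel6 (-1.23) and Arg2 (-1.04) were at least 2-fold lower there, as Tcstv3, Usp17lc, Usp17ld and Usp17le were. Spz1 and Pramel6 are named here after their values were seen. Of the 5 Zscan4 genes, 1 had a negative difference, Zscan4-ps1 at -0.80. With 1 array per line the difference between these lists was not tested.

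**Figure D3:**
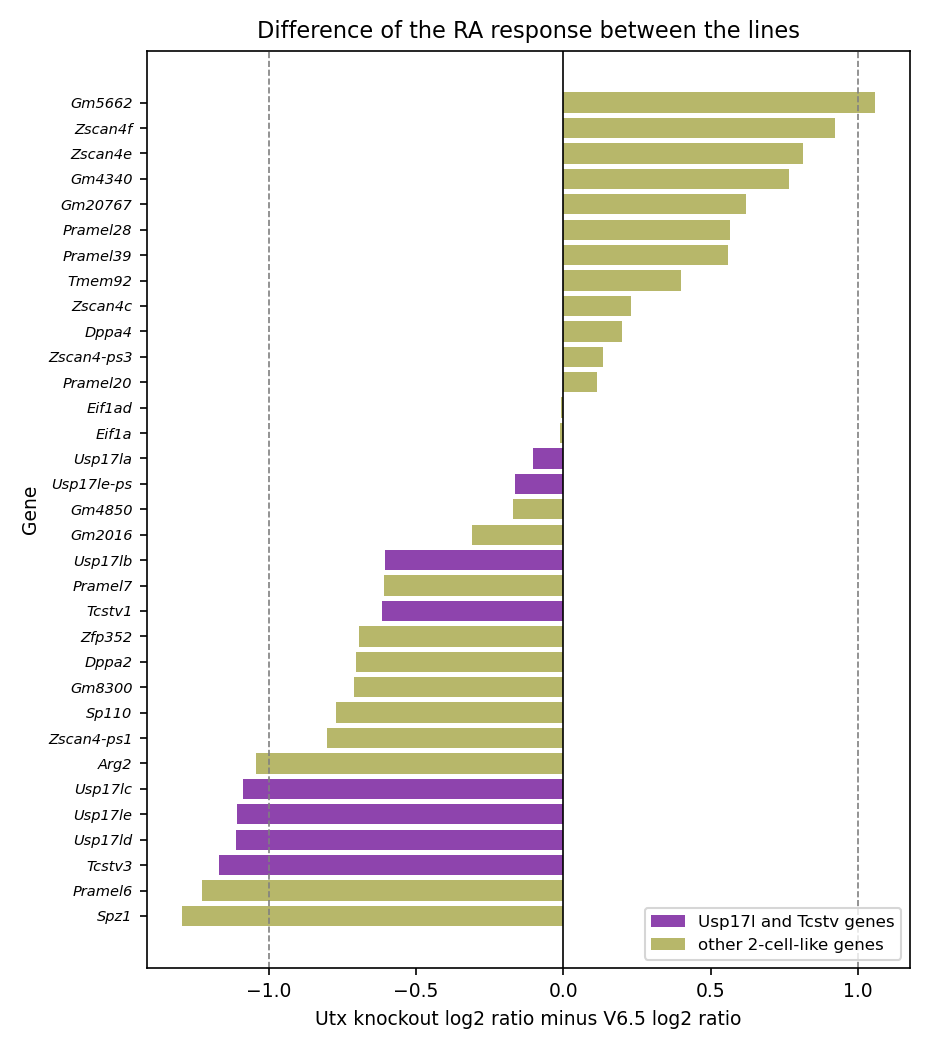
Knockout log2 ratio minus V6.5 log2 ratio (horizontal axis) for the 8 Usp17l and Tcstv genes in purple and 25 other 2-cell-like genes in olive, sorted from high to low. Dashed lines mark a 2-fold difference. All purple bars point below 0, from -0.10 for Usp17la to -1.17 for Tcstv3.

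All 6 Usp17l genes lie on chromosome 7, in an order that RefSeq (GRCm38.p6) gives as Usp17ld, Usp17lc, Usp17le-ps, Usp17le, Usp17lb and Usp17la. Usp17ld and Usp17lc stand apart from the other 4, with olfactory receptor, globin and Trim genes between. Of the other 76 measured genes from Usp17ld to Usp17la, 59 are olfactory receptor genes. Of these 76, 0 were 2-fold higher or lower in the knockout and 0 in V6.5. Over all named genes, 2.92% were higher and 1.65% lower in the knockout, and 2.52% higher and 1.59% lower in V6.5, so few were to be found in 76. Their medians were -0.027 in the knockout and -0.024 in V6.5, and the highest ratio in the knockout was 0.89 for Trim12c, which had 0.68 in V6.5. Olfr658, the measured gene next to Usp17le-ps, had -0.054 in the knockout and 0.24 in V6.5. Gm4887, a pseudogene between Usp17le and Usp17lb, had -0.39 in the knockout and 0.11 in V6.5. Among the Usp17l genes alone, Usp17le lies between Usp17le-ps and Usp17lb, with olfactory receptor genes and Gm4887 separating them. Its ratios were near those of Usp17lc and Usp17ld.

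The Tcstv genes lie on chromosome 13, and there the neighbours were high as well. From Tcstv1 to Tcstv3, both included, RefSeq gives 28 genes, of which only 6 were measured. All 4 other measured genes from Tcstv1 to Tcstv3 were at least 2-fold higher on both arrays, where 1.69% of all named genes were. Of these, Gm20767 is also in the list of 2-cell-like genes above. Gm20767 had 4.94 in the knockout and 4.32 in V6.5, and AF067061 had 4.47 in the knockout and 3.96 in V6.5. BC147527 had 3.54 in the knockout and 3.98 in V6.5. B020031M17Rik had 1.15 in the knockout and 2.76 in V6.5, a difference of -1.61. The measured genes before Tcstv1 were D13Ertd608e, with 3.32 in the knockout and 3.91 in V6.5, and AF067063, with 0.054 in the knockout and 1.26 in V6.5. Beyond them Zfp131 had 0.37 in the knockout and 0.16 in V6.5. This stretch thus held ratios on both sides of those of Tcstv1 and Tcstv3, and differences of both signs. Neighbours were looked up after the values of the families were seen.

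**Figure D4:**
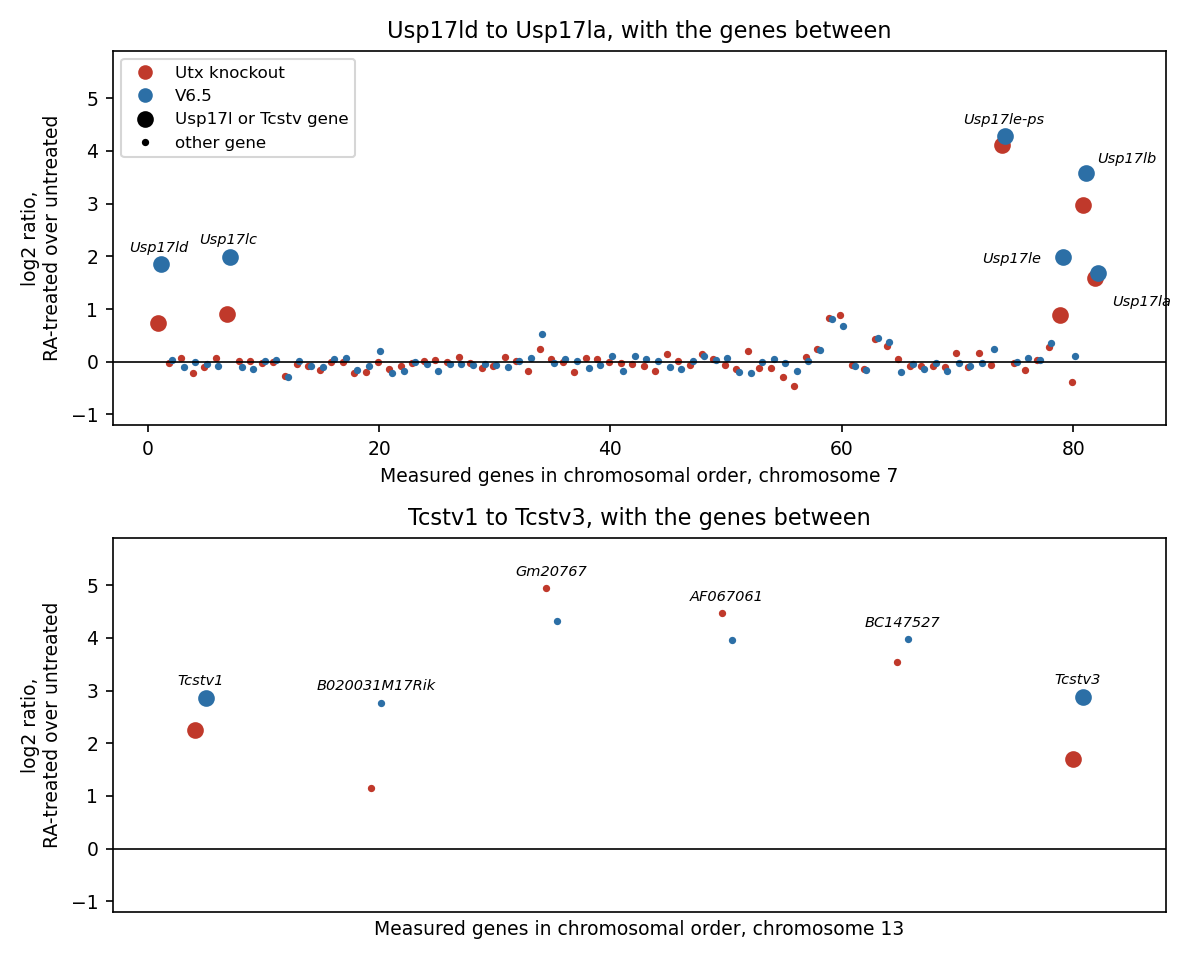
Log2 ratio of RA-treated over untreated cells (vertical axis) for the measured genes in chromosomal order, from Usp17ld to Usp17la on chromosome 7 (top) and from Tcstv1 to Tcstv3 on chromosome 13 (bottom). Red is the Utx knockout and blue V6.5, large circles are Usp17l or Tcstv genes and small points other genes. The 76 other genes of the upper panel stay under 2-fold, and the 4 of the lower panel lie above it.

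Other deubiquitinase genes were measured too. Of 49 other ubiquitin-specific protease genes, 0 were at least 2-fold higher on either array, beside 2.92% of all named genes in the knockout and 2.52% in V6.5. For lists of this size a count of 0 is near those shares. Their medians were -0.029 in the knockout and 0.0064 in V6.5. Usp28 was the gene 2-fold lower on both, with -1.24 in each. Over all named genes, 1.65% were 2-fold lower in the knockout and 1.59% in V6.5, so this count too is near the shares. The highest means were those of Usp18, a protease that acts on the ubiquitin-like protein ISG15, with 0.66 in the knockout and 0.71 in V6.5, and Usp51, with 0.69 in the knockout and 0.61 in V6.5. Of 30 deubiquitinase genes of other classes, 0 were 2-fold higher on either array and 1 was 2-fold lower in V6.5, both near the shares above. That gene was Stambpl1 (-0.90 in the knockout and -1.25 in V6.5). Josd2 (0.45 in the knockout and 0.60 in V6.5) and Tnfaip3 (0.64 in the knockout and 0.24 in V6.5) had the highest means of that list.

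Genes reported to restrain or promote the 2-cell-like state were set beside the families as well. Of 26 measured, 0 were 2-fold higher on either array, where 2.92% of all named genes were in the knockout and 2.52% in V6.5. At least 2-fold lower were 1 in the knockout and 0 in V6.5, where 1.65% and 1.59% of all named genes were. For a list of this size these counts are near those shares. The lower gene was the methylcytosine dioxygenase Tet1, with -1.16 in the knockout and -0.98 in V6.5. Tet2, of the same enzyme family, had -0.83 in the knockout and -0.48 in V6.5. Smchd1, a chromatin protein, had 0.54 in the knockout and 0.40 in V6.5, and Nelfa, a subunit of a transcription pausing complex, had 0.11 in the knockout and 0.72 in V6.5. The medians of the list were -0.12 in the knockout and -0.077 in V6.5.

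**Figure D5:**
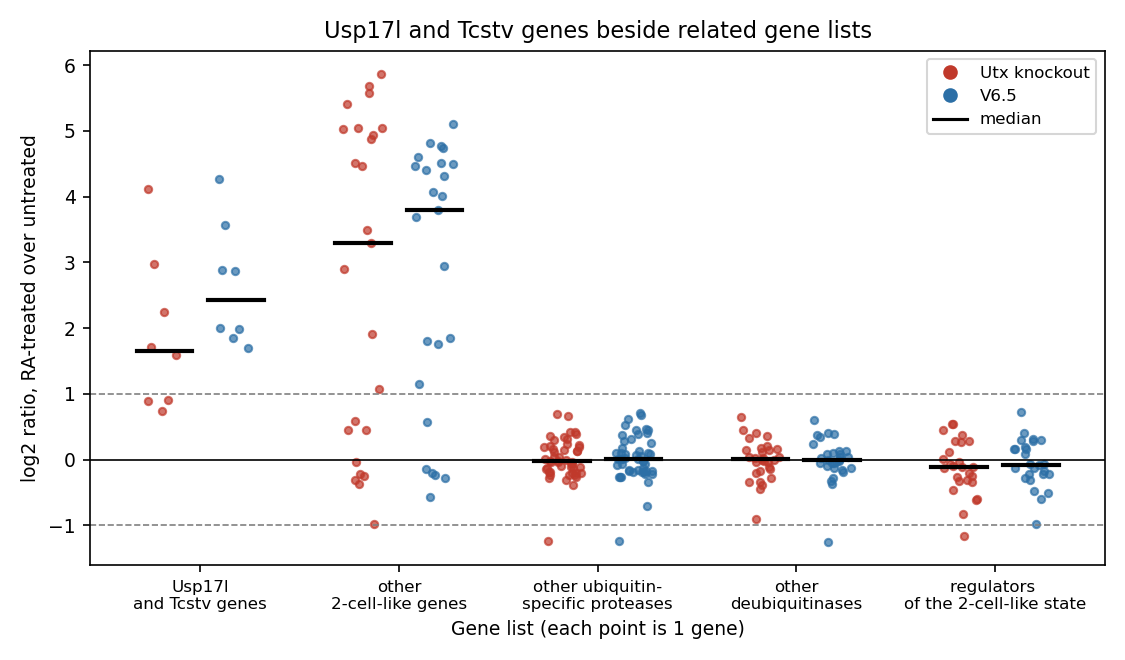
Log2 ratio of RA-treated over untreated cells (vertical axis) for the Usp17l and Tcstv genes and 4 gene lists, with the Utx knockout in red left of V6.5 in blue. Each point is 1 gene, black bars are medians and dashed lines mark 2-fold. The 49 other ubiquitin-specific proteases and 30 other deubiquitinases centre on 0, and the Usp17l and Tcstv medians are 1.65 in the knockout and 2.43 in V6.5.

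The genes most alike were those with the smallest Euclidean distance from the mean of a family over the log2 ratios of the 2 arrays. The mean of the Usp17l genes was 1.87 in the knockout and 2.56 in V6.5. Nearest to it was Duxbl2, a double homeobox gene, with 1.78 in the knockout and 2.41 in V6.5, at a distance of 0.18. Magel2 (1.86 in the knockout and 2.37 in V6.5), Arhgef26 (1.66 in the knockout and 2.61 in V6.5), Gm16367 and Chrm3 followed. The mean of the Tcstv genes was 1.98 in the knockout and 2.87 in V6.5. Nearest to it were Arg2, an arginase, at a distance of 0.11 with 1.90 in the knockout and 2.94 in V6.5, then Gm16367, LOC624931, Gm11554 and Gm11543. With 2 values per gene many genes can lie near any point, and the mean of the Usp17l genes falls between their higher and lower group.

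Markers of cell identity were read on the same arrays. Of 10 ES cell markers, 4 were at least 2-fold lower in the knockout and 1 in V6.5, where 1.65% of all named genes were in the knockout and 1.59% in V6.5, among them Klf4, with -2.44 in the knockout and -1.65 in V6.5. Tdgf1, a coreceptor of Nodal, had -2.16 in the knockout and -0.68 in V6.5, and the pluripotency factor Nanog had -0.16 in the knockout and 0.29 in V6.5. Of the 10 markers, 6 had a lower ratio in the knockout, Klf4, Tdgf1 and Nanog included, and the others had a higher one. The median of the list was higher in the knockout, at -0.30, than in V6.5, at -0.62. Of 8 fibroblast markers, 7 were 2-fold lower in the knockout and 7 in V6.5, with ratios from -2.63 to -0.86 in the knockout and -1.95 to -0.80 in V6.5. Only ratios are given, so no level of a marker is known, and the part of a change in cell types in the Usp17l and Tcstv ratios was not tested.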

How the data were processed

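Total RNA of RA-treated and untreated cells of each line shared 1 dual-colour Agilent array. Per the labels' protocols, untreated RNA carried Cy3 and RA-treated RNA Cy5. The authors deposited log2 ratios, 1 per feature and array, centred on a mean of 0 per array; base 2 is an inference, since the largest ratio of 5.86 would be 732000-fold as log10. The submitters' processing notes list limma, with neither a version nor its use. For background correction and normalization, no source used here gives a method. There was no dye swap, so a dye bias of a probe stays in its ratio, and spot intensities were not used here, so signal over background is unknown. The number of arrays limits the precision.

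Of the features, 33026 had 1 gene symbol, 0 several and 11371 none. Each gene's value on an array is the mean of its features. Counts are of genes with a log2 ratio of at least 1 or at most -1, with no test. All 8 members matched RefSeq (GRCm38.p6) by Entrez number, under the same symbol, and 4 had a promoter there. No protein sequence was used. That table gave names and gene order, and coordinates only for the sequences shown. Members, gene lists, thresholds and alternatives were chosen with earlier results of these data known. All members were named; of each list, the 2 highest and 2 lowest genes by mean ratio or those past 2-fold on both arrays could be named, and for each family the 5 most alike genes. Averaging, counting and motif search were tested on simulated data. The software was pandas 2.3.3, numpy 2.4.6 and, for figures, matplotlib 3.10.9, under Python 3.11.15.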

Additional observations from a re-analysis of the deposited data

How the results depend on the processing

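The settings varied were centring each array on the median of all features, the median over features and the feature nearest 0. Counting over features and other fold thresholds were varied too. Leaving out the lower Usp17la feature was chosen after seeing the data, and the other thresholds for the differences were not planned either. A value counted as moved when it shifted by at least the median SD between features, 0.14 on each array or 0.20 for a difference. Usp17la alone reversed, with the feature nearest 0: its ratio became -0.093 in the knockout and -0.35 in V6.5, and the difference 0.26. That setting moved the Usp17l median to 0.90 in the knockout. Without the lower feature, Usp17la became 3.27 in the knockout and 3.74 in V6.5, the difference -0.47, and the Usp17l medians 1.93 in the knockout and 2.79 in V6.5; with both features they were 1.24 in the knockout and 1.99 in V6.5. By construction these settings differ from the reported values only through Usp17la. At 1.5-fold, 8 of 8 genes were higher in the knockout, where 7.28% of all genes were. At 4-fold, 3 were in the knockout and 4 in V6.5, where 0.649% of all genes were in the knockout and 0.56% in V6.5, and 0 were 4-fold lower in the knockout than in V6.5. With the feature nearest 0, the genes at least 2-fold higher were 4 in the knockout and 7 in V6.5, and 7 had a lower ratio in the knockout. At 1.5-fold, 6 were lower in the knockout than in V6.5. These counts, within 1.5 times the reported ones, are among 33 other family and count values that kept within that factor or, for medians, the SD, as 90 of 96 values of single genes did. Those 90 were fixed in advance and are no sign of stability. A gene with 1 feature cannot change with the feature settings, and the median of 2 features is their mean. Centring shifted each array only by its median, -0.035 in the knockout and -0.031 in V6.5. No paired analysis was possible because each line has 1 array. Leaving out a replicate was not possible either, and without intensities the depth of a ratio cannot be judged.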
